A study of Mus musculus with 12 samples.

Results

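MHC class I antigen presentation and its inducible proteasome subunits were followed in 10 genes of MLE-12 cells. The genes were the heavy chains H2-K1 and H2-D1, the light chain B2m, the peptide transporter subunits Tap1 and Tap2, the loading factor Tapbp, the inducible proteasome subunits Psmb8, Psmb9 and Psmb10, and the class I regulator Nlrc5. Their rows were found by gene symbol, and each symbol matched 1 of the 34745 genes of the expression table, so 10 of 34745 genes are described. All 10 passed the filter on low counts in every comparison.

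MLE-12 is a mouse AT II cell line, made from a lung tumour of a mouse that carried SV40 large T antigen under the SFTPC promoter. RNA was sequenced in 12 libraries, 3 per group. The LPS group received 100 ng/mL LPS in 21% oxygen, and the LPS + M2-Exo group received the same LPS and 10 μg/mL M2-Exo, the exosomes of MH-S alveolar macrophages polarized with IL-4. The Hyp group was kept in 85% oxygen without LPS, and the Hyp + M2-Exo group had the same oxygen and 10 μg/mL M2-Exo. The labels give 24 h for all 12 libraries. Untreated cells were not among the groups, and a level under one injury could only be set against the other injury. The labels do not say whether the 3 libraries of a group came from separate cultures, and p-values therefore measure the spread between libraries, which may be technical.

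Class I molecules show short peptides from inside the cell to CD8 T cells, and nearly all nucleated cells carry them. The proteasome cuts cytosolic proteins into peptides, TAP pumps the peptides into the endoplasmic reticulum, and tapasin helps to load them onto a heavy chain bound to beta-2 microglobulin. Interferon and other inflammatory signals raise many of these genes together in epithelial cells. In the immunoproteasome the inducible subunits take the places of constitutive catalytic subunits: Psmb8 that of Psmb5, Psmb9 that of Psmb6 and Psmb10 that of Psmb7. NLRC5 has no DNA-binding domain of its own and acts through the S, X and Y boxes of class I promoters, which RFX, CREB family and NF-Y proteins bind.

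Total counts per library ranged from 16021833 to 19185116 in the LPS groups and from 20231632 to 24074616 in the hyperoxia groups, so depth moved with the injury. The least abundant of the 10 genes, Psmb9, had 231 counts in its lowest library and H2-D1 had 40865 in its highest, and none was near the limit of 3 counts that a count of 0 allows in a library, a limit that covers counting error only. Summed levels of 11 alveolar type II markers lay between 503 and 562 CPM (counts scaled to a common library size) under LPS and between 307 and 329 CPM under hyperoxia, with Nkx2-1 and Abca3 high, Sftpc at 10.5 to 23.4 CPM, and Sftpa1 and Sftpd with 1 count each over all 12 libraries. For 8 epithelial markers the sums were 663 to 745 CPM under LPS and 807 to 930.5 CPM under hyperoxia, with most of the sum from Krt19, Krt8 next, Epcam at 0.27 to 1.17 CPM and Cldn7 at 0. For 18 macrophage markers, in 19 rows of the table, the sums were 343 to 483 CPM under LPS and 92.0 to 138 CPM under hyperoxia, with Csf1r, Lyz2, Adgre1 and Ptprc present in every library and Chil3 at 0. Siglecf, Cd163 and Arg1 had 3, 7 and 9 counts over all 12 libraries. For 8 lymphocyte markers the sums were at most 0.323 CPM under LPS and between 0.709 and 1.3 CPM under hyperoxia, with Cd3d and Cd8a at 0. These are bulk samples, so fewer cells of a type and less RNA per cell cannot be told apart.

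Of the 10 genes, 7 lie on chromosome 17, in or near the H2 complex. Positions are those of the table, on the GRCm38 build. H2-K1 (ENSMUSG00000061232) lies at chr17:33996017-34000333 on the minus strand and H2-D1 (ENSMUSG00000073411) at chr17:35262730-35267499 on the plus strand. Tapbp (ENSMUSG00000024308) lies at chr17:33915899-33929288. Psmb9 (ENSMUSG00000096727), Tap1 (ENSMUSG00000037321), Psmb8 (ENSMUSG00000024338) and Tap2 (ENSMUSG00000024339) follow each other at chr17:34181988-34187764, chr17:34187553-34197225, chr17:34197721-34201454 and chr17:34203527-34216321. Of these, Psmb9 is on the minus strand and the others, like Tapbp, are on the plus strand. Psmb10 (ENSMUSG00000031897) and Nlrc5 (ENSMUSG00000074151) lie apart from each other on chromosome 8, at chr8:105935728-105938392 and chr8:94472763-94527272, and B2m (ENSMUSG00000060802) lies at chr2:122147686-122153083. All 10 are annotated as protein coding.

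RefSeq promoter windows of 250 bases before and 50 after the start site (GRCm38.p6) were found for 8 of the 10 genes, and Tap2 and Nlrc5 had none. The X and Y boxes were searched as TGACG, the core of the X2 box, followed on the same strand after 10 to 35 bases by ATTGG, the core of the Y box, on both strands. This pair was found in 0.849% of 32851 promoters and in those of H2-K1, H2-D1 and B2m, the 3 genes that make up the class I molecule itself. The last 200 bases before the start sites of these 3 genes are shown because they carry the pair, and the capitals mark the motifs found: chr17:34000334-34000533 (minus strand), chr17:35262894-35263093 (plus strand) and chr2:122147487-122147686 (plus strand). H2-K1 had a further RefSeq window, chr17:34000298-34000597, which is not printed. There TGACG lies at -41 and ATTGG at -16 from the start site, against -55 and -30 for the start site used here. The windows of H2-D1, Psmb8, Psmb9 and Tapbp lie within the table's genes, which start further upstream than the RefSeq starts. The distance is largest for Tapbp, whose gene starts at 33915899 and whose window starts at 33919228. For these genes the motifs describe the RefSeq windows only.
H2-K1: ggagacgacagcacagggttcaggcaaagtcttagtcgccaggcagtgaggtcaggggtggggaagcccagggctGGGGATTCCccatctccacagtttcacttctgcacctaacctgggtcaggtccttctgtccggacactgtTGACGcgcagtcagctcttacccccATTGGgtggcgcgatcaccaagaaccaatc
H2-D1: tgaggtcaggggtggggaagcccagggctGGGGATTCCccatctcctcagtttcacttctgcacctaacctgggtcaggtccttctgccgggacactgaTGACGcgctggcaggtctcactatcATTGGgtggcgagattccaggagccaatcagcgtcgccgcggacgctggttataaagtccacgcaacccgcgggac
B2m: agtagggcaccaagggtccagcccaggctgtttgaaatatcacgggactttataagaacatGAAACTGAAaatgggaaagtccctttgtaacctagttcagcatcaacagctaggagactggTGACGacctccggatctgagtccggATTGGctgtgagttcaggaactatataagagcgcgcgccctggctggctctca
In all 3 promoters 20 bases separate TGACG from ATTGG. H2-K1 and H2-D1 also carry the capitals of a kappa B motif, GGGNNTTCC on either strand, which 5.82% of promoters hold, and in both 61 bases separate it from TGACG. B2m had no match to GGGNNTTCC, but other spellings of a kappa B motif were not searched. It holds the letters gggaaagtccc, which GGGNNTTCC does not match on either strand. The search therefore cannot decide whether the B2m promoter lacks a kappa B motif. B2m has GAAANNGAA, an interferon regulatory factor motif present in 8.56% of promoters. H2-K1 and H2-D1 had no match to it, but other spellings of such a motif were not searched. Both hold the letters agtttcacttct between the kappa B motif and TGACG, which GAAANNGAA does not match on either strand. The search therefore cannot decide whether these 2 promoters lack an interferon motif. Psmb8 had TTCNNNGAA, a STAT motif present in 8.30% of promoters, and the windows of Psmb9, Tap1, Psmb10 and Tapbp held none of these 3 motifs and no TGACG and ATTGG at the searched spacing, although single TGACG or ATTGG letters occur in those of Psmb9, Tap1 and Tapbp. These motifs do not overlap each other in these windows, and a match is a description of the letters.

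Tap1 and Psmb9 start back to back. Their RefSeq start sites are 226 bases apart on opposite strands, and their windows share 275 bases. The 225 bases between the starts, at chr17:34187331-34187555, are shown on the plus strand in the direction of Tap1, because the RefSeq starts of both genes flank them. By the positions of the table Psmb9 starts further upstream, at 34187764, and this stretch lies within it.
Tap1-Psmb9: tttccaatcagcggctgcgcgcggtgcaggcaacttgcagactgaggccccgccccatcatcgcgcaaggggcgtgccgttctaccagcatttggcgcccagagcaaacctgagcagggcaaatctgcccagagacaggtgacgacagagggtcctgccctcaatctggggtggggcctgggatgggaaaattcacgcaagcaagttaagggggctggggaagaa

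The order of the 10 levels was nearly the same in all 4 groups when counts were taken per kb of exons. B2m was highest, at 1015 ± 163 CPM per kb in LPS, 906 ± 62.3 in LPS + M2-Exo, 703 ± 28.1 in Hyp and 719 ± 45.1 in Hyp + M2-Exo (SD, n = 3 each). H2-D1 came next, at 667 ± 9.10 CPM per kb in LPS and 618 ± 15.4 in Hyp. H2-K1 and Tapbp followed, at 207 ± 4.17 and 129.6 ± 1.76 CPM per kb in LPS. B2m was above H2-D1 in every library. In Hyp, H2-K1 was at 145 ± 6.49 and Tapbp at 57.1 ± 2.54 CPM per kb. Psmb10, Psmb8 and Tap2 formed a middle group, at 32.2 ± 0.505, 28.8 ± 1.41 and 21.8 ± 1.91 CPM per kb in LPS and 15.8 ± 1.54, 13.4 ± 0.866 and 11.3 ± 0.302 in Hyp. In Hyp + M2-Exo, Psmb10 at 14.5 ± 0.274 and Psmb8 at 13.5 ± 1.13 CPM per kb overlapped, while in the other groups these neighbours did not. Tap1, Nlrc5 and Psmb9 were lowest. Tap1 was at 8.32 ± 1.39 CPM per kb in LPS. Nlrc5, at 5.64 ± 0.392 CPM per kb in LPS, did not differ from Psmb9, at 5.40 ± 0.877, by more than the spread, whereas in Hyp it stood in the 8th place at 8.60 ± 0.183 CPM per kb, above Tap1 at 7.12 ± 0.485 and Psmb9 at 2.95 ± 0.105. In Hyp + M2-Exo the ranges of Nlrc5 and Tap1 overlapped. The deposited FPKM rest on other gene lengths. By mean FPKM in LPS the order differed in that Tapbp, at 97.0, stood above H2-K1, at 81.2.

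**Figure D1:**
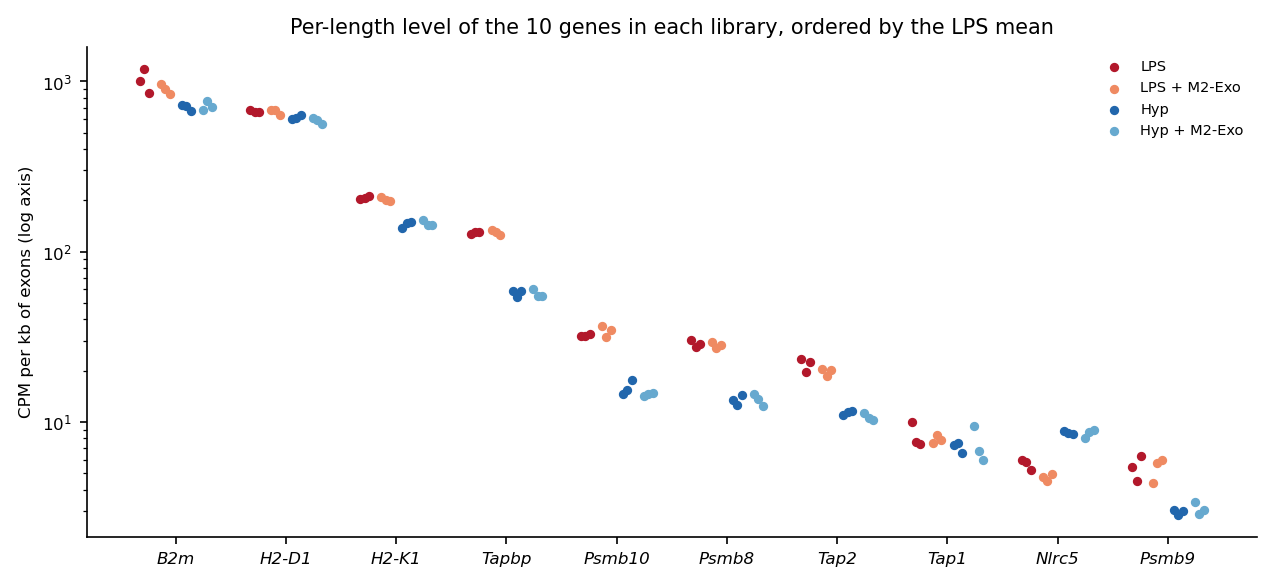
Level of each gene in each of the 12 libraries, in CPM per kb of exons on a log axis, with genes ordered from left to right by their mean in LPS and groups by color. B2m and H2-D1 sit highest, Psmb9 lowest in LPS at 5.40 CPM per kb, and Nlrc5 alone sits higher in the hyperoxia libraries.

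With M2-Exo none of the 10 genes passed the test in either model. In LPS + M2-Exo against LPS, edgeR's quasi-likelihood test with Benjamini-Hochberg adjustment over all genes called 0 of 10 genes at an adjusted p under 0.05, and 0.187% of the 13353 genes tested. An unadjusted p under 0.05 was reached by 1 of the 10 genes and by 11.1% of all genes tested, and DESeq2 called 0. The log2 fold changes lay between -0.25 (Nlrc5) and 0.087 (Psmb10), with a median of -0.023 against 0.0027 over all genes tested. In Hyp + M2-Exo against Hyp edgeR called 0 of 10 genes and 0.101% of the 13815 genes tested, and DESeq2 called 0 of the 10. An unadjusted p under 0.05 was reached by 0 of the 10 and by 8.48% of all genes. These log2 fold changes lay between -0.13 (Psmb10) and 0.065 (Psmb9), with a median of -0.0019 against -0.0021 over all genes.

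The heavy chains had narrow intervals. H2-K1 had 595, 609 and 619.9 CPM in the 3 LPS libraries and 615, 594 and 583 CPM with M2-Exo, and the groups overlapped. The 95% confidence interval of its change ran from -6.71% to 3.52%. H2-D1 had 1745, 1699.7 and 1713 CPM in LPS and 1759.8, 1758 and 1643 CPM in LPS + M2-Exo, with an interval from -5.56% to 5.91%. In hyperoxia H2-K1 had 404, 431 and 440.1 CPM without and 452, 424 and 419.6 CPM with M2-Exo, an interval of -5.71% to 8.64%. H2-D1 had 1562, 1583 and 1639 CPM in Hyp and 1576, 1536 and 1457 CPM in Hyp + M2-Exo, an interval of -10.7% to 1.41%. The groups overlapped in each of these comparisons, and all 4 intervals lay within -10.7% to 8.64%.

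B2m, the shared light chain, varied more in LPS, with 871, 1014 and 733 CPM against 834, 777 and 727 CPM with M2-Exo. The interval was -24.9% to 6.17% (log2 fold change -0.16, adjusted p = 0.639 from edgeR). The log2 fold change was -0.045 without LPS replicate 2 and -0.28 without LPS replicate 3. In hyperoxia the values were 623, 614 and 577 CPM without and 585, 661 and 609 CPM with M2-Exo, and the interval was -6.31% to 10.9%.

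Tap1 had 1 high library in each of the LPS and Hyp + M2-Exo groups. Its values were 54.3, 41.5 and 40.8 CPM in LPS, 41.2, 45.9 and 43.0 in LPS + M2-Exo, 40.0, 41.0 and 36.0 in Hyp and 52.0, 36.6 and 32.7 in Hyp + M2-Exo. Its intervals were wide, -20.4% to 13.9% in LPS and -19.5% to 33.0% in hyperoxia. Tap2, its partner in the transporter, had a log2 fold change of -0.14 in LPS (interval -0.31 to 0.021 on the log2 scale, adjusted p = 0.512) and -0.089 in hyperoxia (interval -0.22 to 0.044, adjusted p = 0.663). Tapbp, which holds the empty heavy chain at the transporter, had intervals of -4.88% to 5.71% in LPS and -8.62% to 6.79% in hyperoxia.

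Among the inducible proteasome subunits, Psmb8 had 103, 93.1 and 96.8 CPM in LPS and 100.1, 92.2 and 96.0 CPM in LPS + M2-Exo, and 45.5, 42.5 and 48.3 CPM in Hyp and 49.4, 46.0 and 41.8 CPM in Hyp + M2-Exo. Psmb9 had 19.8, 16.5 and 22.9 CPM in LPS and between 16 and 22 CPM with M2-Exo, and 11.1, 10.4 and 10.9 CPM in Hyp and 12.4, 10.5 and 11.1 CPM with M2-Exo. Psmb10 had 54.2, 54.5 and 55.8 CPM in LPS and 62.2, 53.8 and 58.8 CPM with M2-Exo, and 24.9, 26.2 and 30.0 CPM in Hyp and 24.3, 24.8 and 25.2 CPM with M2-Exo. The groups with and without M2-Exo overlapped for all 3 subunits in both models. The intervals of the M2-Exo change in LPS were -9.21% to 7.05% for Psmb8, -22.1% to 26.8% for Psmb9 and -3.57% to 17.0% for Psmb10.

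Nlrc5 was the one gene whose groups did not overlap. It had 50.5, 49.0 and 44.1 CPM in LPS and 40.1, 38.2 and 42.2 CPM in LPS + M2-Exo. Every library with M2-Exo lay below every library without it, which held for 1 of 10 genes and for 17.2% of all genes tested. The log2 fold change was -0.25 (SE 0.069, 95% confidence interval -0.41 to -0.094, unadjusted p = 0.00645, adjusted p = 0.260 from edgeR), so the difference did not pass the adjustment. In hyperoxia Nlrc5 had 74.7, 72.7 and 71.6 CPM without and 68.6, 73.8 and 76.2 CPM with M2-Exo, and the log2 fold change was -0.0085. There 0 of 10 genes had groups that did not overlap, where 15.6% of all genes tested did.

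The M2-Exo change in LPS was then set against that in hyperoxia as an interaction term over all 12 libraries. It passed for 0 of 10 genes by edgeR and 0 by DESeq2, and for 0.0352% of 14187 genes tested by edgeR. An unadjusted p under 0.05 was reached by 1 of the 10 genes and by 9.78% of all genes tested. The 1 gene was Nlrc5, with a difference of -0.25 on the log2 scale (95% confidence interval -0.44 to -0.061, adjusted p = 0.404). For Psmb10 the difference was 0.21 (interval -0.0056 to 0.43, adjusted p = 0.523).

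**Figure D2:**
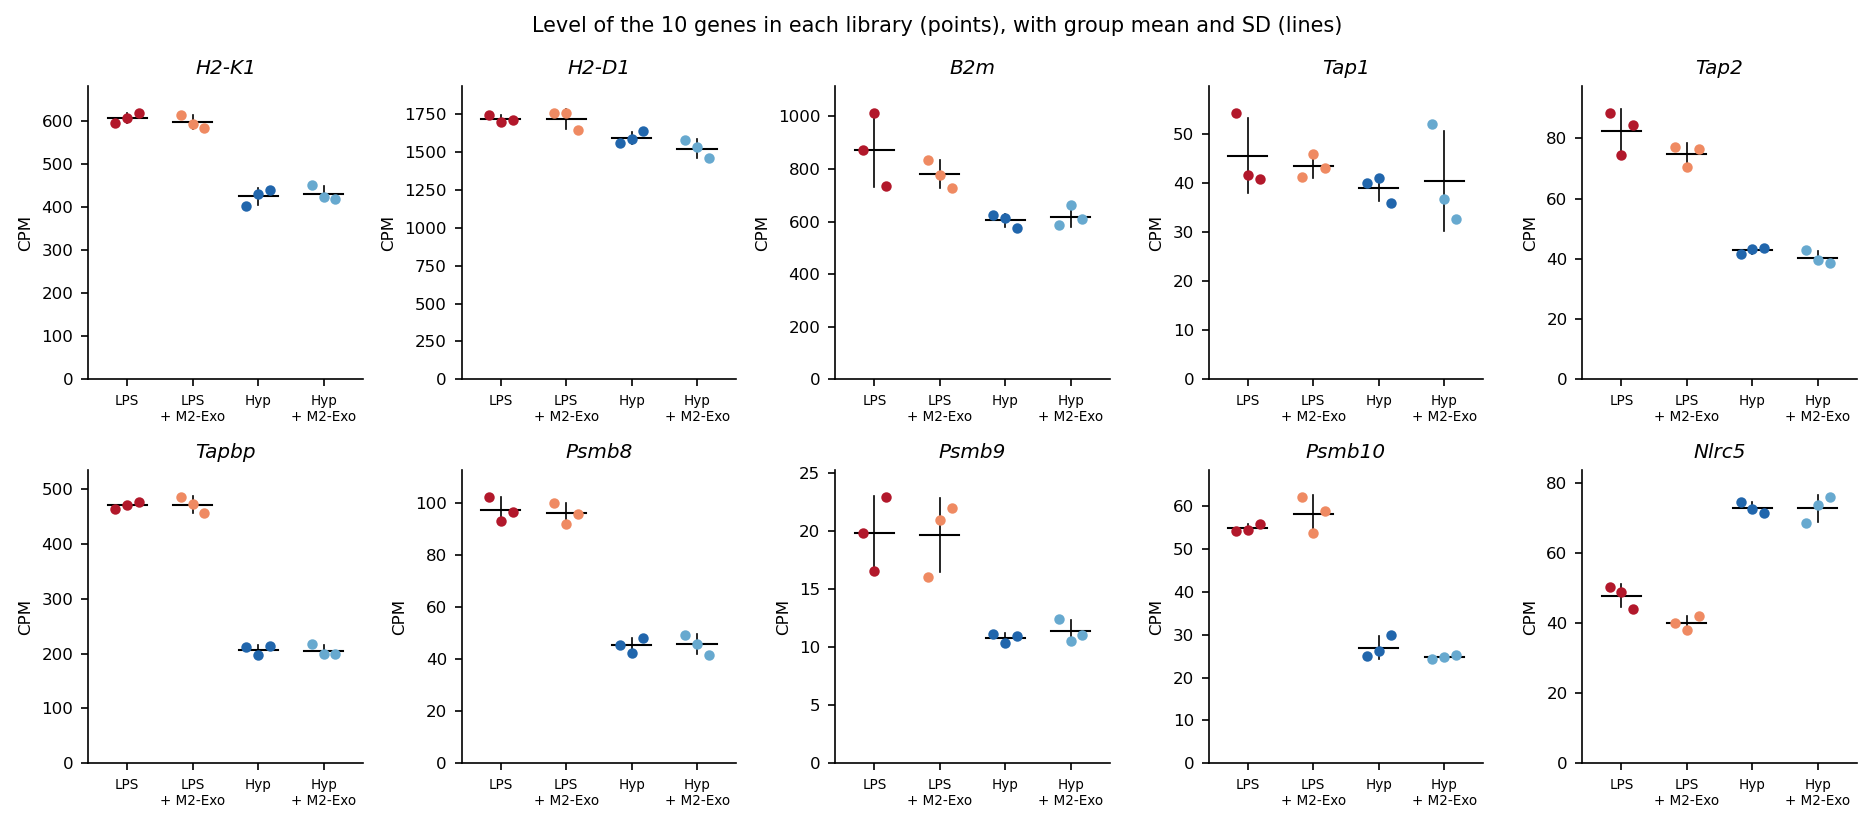
CPM of each gene in each library (points, 3 per group), with the group mean as a horizontal line and the SD as a vertical line, on axes that start at 0. Nlrc5 sits at 38.2 to 50.5 CPM under LPS and at 68.6 to 76.2 CPM under hyperoxia, while 8 of the other genes sit higher in the LPS libraries and Tap1 overlaps. The share of all genes that separate in this way was not counted.

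The injury, in contrast, separated most of the genes. In LPS against Hyp, 8 of 10 genes were higher and 1, Nlrc5, was lower at an adjusted p under 0.05. Tapbp, Psmb8 and Psmb10 were more than doubled in CPM, H2-K1 and B2m were 1.43- and 1.44-fold higher, and H2-D1 was 1.08-fold higher. This comparison called 75.8% of the 13805 genes tested, 37.8% higher and 38% lower in LPS, so a call by itself says little about these genes, and their direction and size are described here. A log2 fold change of at least 0.5 upwards with an adjusted p under 0.05 was reached by 7 of the 10 genes and by 25.4% of all genes. The median over the 10 genes was 0.70 against -0.0091 over all genes tested. The share of all genes whose LPS libraries lie wholly apart from the hyperoxia libraries was not counted. Such separations are therefore given below as a description only. LPS, oxygen, depth and any difference in handling between the models cannot be told apart here.

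The comparison of LPS + M2-Exo against Hyp + M2-Exo used the other 6 libraries. It called 9 of 10 genes again, 8 higher and Nlrc5 lower in LPS + M2-Exo, where 73.7% of 13660 genes were called, 36.5% higher and 37.1% lower. A log2 fold change of at least 0.5 upwards was reached by 5 of the 10 genes and by 25.4% of all genes. The median over the 10 genes was 0.63 against -0.0083 over all genes.

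Tapbp had the largest fold of the 10 genes in LPS against Hyp. Its values were 463, 471 and 476 CPM in LPS and 212, 197 and 213 CPM in Hyp, a 2.27-fold difference (95% confidence interval 2.13 to 2.41, adjusted p = 9.58e-08 from edgeR). With M2-Exo it had 486, 472 and 457 CPM in LPS and 218, 199 and 199 CPM in hyperoxia, a 2.30-fold difference (interval 2.13 to 2.48). The 6 LPS libraries lay well above the 6 hyperoxia libraries. Tapbp overlaps Zbtb22 by 3421 bases on the same strand and shares 23.2% of its 50-base stretches with other genes, so its counts are uncertain where reads were split between genes. The same limit holds for Tap2 and Psmb8, which share 11.6% and 11.9% of theirs. Psmb9 shares 4.19% and Tap1 3.33%.

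Tap2 had 88.5, 74.5 and 84.5 CPM in LPS and 41.5, 43.4 and 43.6 CPM in Hyp, a 1.93-fold difference (interval 1.73 to 2.15, adjusted p = 5.32e-06). With M2-Exo it had 77.2, 70.5 and 76.4 CPM in LPS and 42.9, 39.7 and 38.7 CPM in hyperoxia, a 1.85-fold difference (interval 1.67 to 2.05). Its partner Tap1 did not pass in either comparison. The fold was 1.17 (interval 0.97 to 1.40, adjusted p = 0.104) in LPS against Hyp and 1.07 (interval 0.83 to 1.38, adjusted p = 0.588) with M2-Exo, and the ranges over 6 libraries, 40.8 to 54.3 CPM and 32.7 to 52.0 CPM, overlapped. The second value depends on 1 library, since without Hyp + M2-Exo replicate 1 the log2 fold change of Tap1 was 0.32 with an adjusted p of 0.00996, and without replicate 3 of that group it was -0.037. Tap2 per Tap1, each per kb of exons, was 265% ± 32.3 in LPS and 250.5% ± 25.3 in LPS + M2-Exo, against 160% ± 13.8 in Hyp and 149% ± 26.7 in Hyp + M2-Exo (SD, n = 3 each), with no overlap between the injuries.

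Of the inducible subunits, Psmb8 was at 97.5 ± 4.78 CPM in LPS and 45.4 ± 2.93 CPM in Hyp (SD, n = 3 each), a 2.14-fold difference by edgeR (interval 1.95 to 2.36, adjusted p = 1.15e-06). Psmb10 was at 54.9 ± 0.862 against 27.0 ± 2.62 CPM, a 2.03-fold difference (interval 1.80 to 2.29, adjusted p = 5.57e-06). Psmb9, the least abundant, was at 19.8 ± 3.21 against 10.8 ± 0.386 CPM, a 1.83-fold difference (interval 1.51 to 2.22, adjusted p = 0.000254). All LPS libraries lay above all hyperoxia libraries for the 3 subunits, with and without M2-Exo, a separation whose share over all genes was not counted. With M2-Exo the folds were 2.10 for Psmb8, 2.35 for Psmb10 and 1.73 for Psmb9. Psmb9 and Tap1, whose RefSeq starts the printed stretch joins, thus had a log2 fold change of 0.87 and 0.22 in LPS against Hyp, and the difference between the pair was not tested. They overlap by 212 bases on opposite strands, and the sources used here do not state whether counting used strand.

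The constitutive partners went the other way. Psmb7 fell by 0.57 on the log2 scale in LPS against Hyp, Psmb5 by 0.36 and Psmb6 by 0.25, with adjusted p = 1.80e-06, 9.14e-05 and 0.000153 from edgeR. Per kb of exons, Psmb10 stood at 90.5% ± 2.26 of Psmb7 in LPS and 30.0% ± 2.10 in Hyp. Psmb8 stood at 26.0% ± 1.57 of Psmb5 in LPS and 9.43% ± 0.550 in Hyp, and Psmb9 at 8.79% ± 1.37 of Psmb6 in LPS and 4.04% ± 0.135 in Hyp (SD, n = 3 each). With M2-Exo the 3 ratios were 89.4% ± 8.21, 23.2% ± 1.04 and 8.40% ± 1.40 in LPS and 25.7% ± 1.05, 8.99% ± 0.774 and 4.03% ± 0.375 in hyperoxia. Per kb of exons, the 3 inducible subunits thus stood at unlike levels against the subunits they replace, with Psmb10 nearest to its partner. These percentages are of mRNA and rest on the exon lengths of the GENCODE M21 annotation, while the differences between groups do not. The order of the subunits also rests on these lengths. By counts in LPS replicate 1, Psmb8 was nearest, with 1866 against 1792 for Psmb5. Psmb10 had 986 against 2214 for Psmb7 there.

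**Figure D3:**
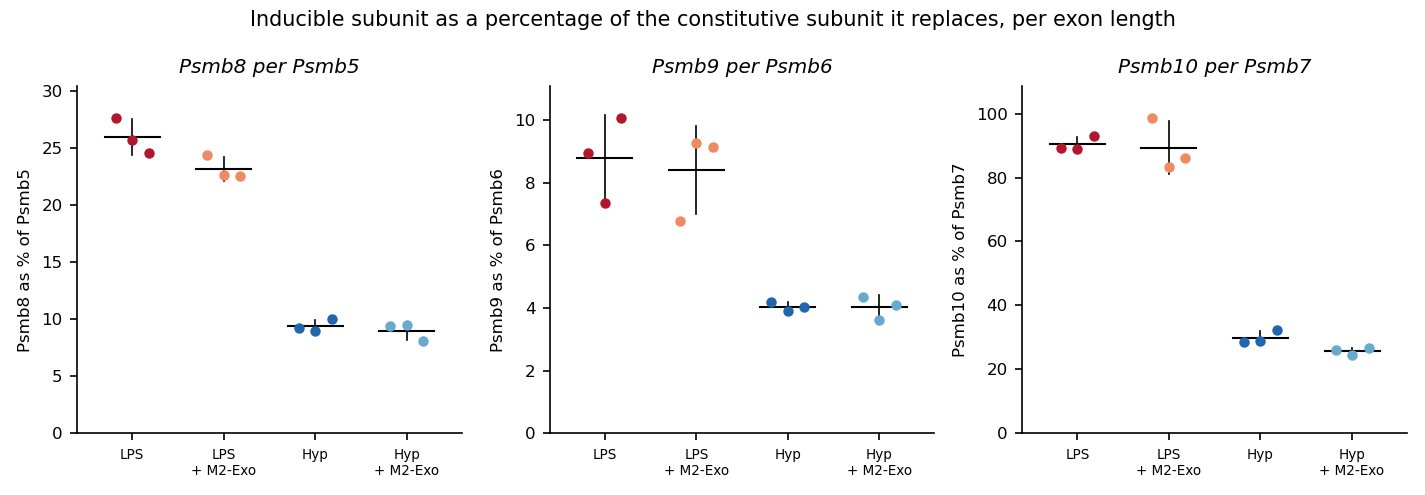
Level of Psmb8, Psmb9 and Psmb10 in each library as a percentage of the constitutive subunit that each replaces (Psmb5, Psmb6 and Psmb7), per kb of exons, with the group mean and SD as lines. The LPS libraries sit above the hyperoxia libraries in all 3 panels, and Psmb10 per Psmb7 is 90.5% in LPS and 30.0% in Hyp.

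The genes of the class I molecule itself had smaller folds than Tapbp, Tap2 and the 3 inducible subunits. Tap1, at 1.17-fold in LPS against Hyp, lay below H2-K1 and B2m. H2-K1 was 1.43-fold higher in LPS than in Hyp (interval 1.34 to 1.53, adjusted p = 8.58e-06) and 1.38-fold higher with M2-Exo (an interval of 29.6% to 47.9% higher). B2m was 1.44-fold higher (interval 1.22 to 1.70, adjusted p = 0.00175) and 1.26-fold higher with M2-Exo (interval 1.14 to 1.40). H2-D1 was 1.08-fold higher (interval 1.02 to 1.14, adjusted p = 0.0170) and 1.13-fold higher with M2-Exo (interval 1.05 to 1.22). The 6 LPS libraries lay above the 6 hyperoxia libraries for all 3 genes, but for H2-D1 only by 1643 to 1639 CPM at the nearest libraries, and without Hyp replicate 1 its adjusted p in LPS against Hyp was 0.0640. H2-K1 per H2-D1, each per kb of exons, was 31.0% ± 0.965 in LPS and 23.4% ± 0.640 in Hyp (SD, n = 3 each). The heavy chains share sequence, 9.63% of the 50-base stretches of H2-K1 and 12.8% of those of H2-D1 also occurring in other genes, and when the 31 class I heavy chain genes of the table were summed the log2 fold change of the sum was 0.23 (adjusted p = 0.000391). The reference is the genome of 1 mouse strain and class I alleles differ between strains, so reads of other alleles may have been lost, which was not tested.

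Nlrc5, the regulator, was the gene that was lower in LPS. Its 6 LPS libraries lay at 38.2 to 50.5 CPM and its 6 hyperoxia libraries at 68.6 to 76.2 CPM. The log2 fold change was -0.61 in LPS against Hyp (SE 0.057, 95% confidence interval -0.74 to -0.48, adjusted p = 2.40e-05) and -0.86 with M2-Exo (SE 0.065, interval -1.01 to -0.71, adjusted p = 7.13e-06). Hyp was thus 1.53-fold above LPS, and Hyp + M2-Exo 1.81-fold above LPS + M2-Exo. Nlrc5 shares 0.338% of its 50-base stretches with other genes.

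**Figure D4:**
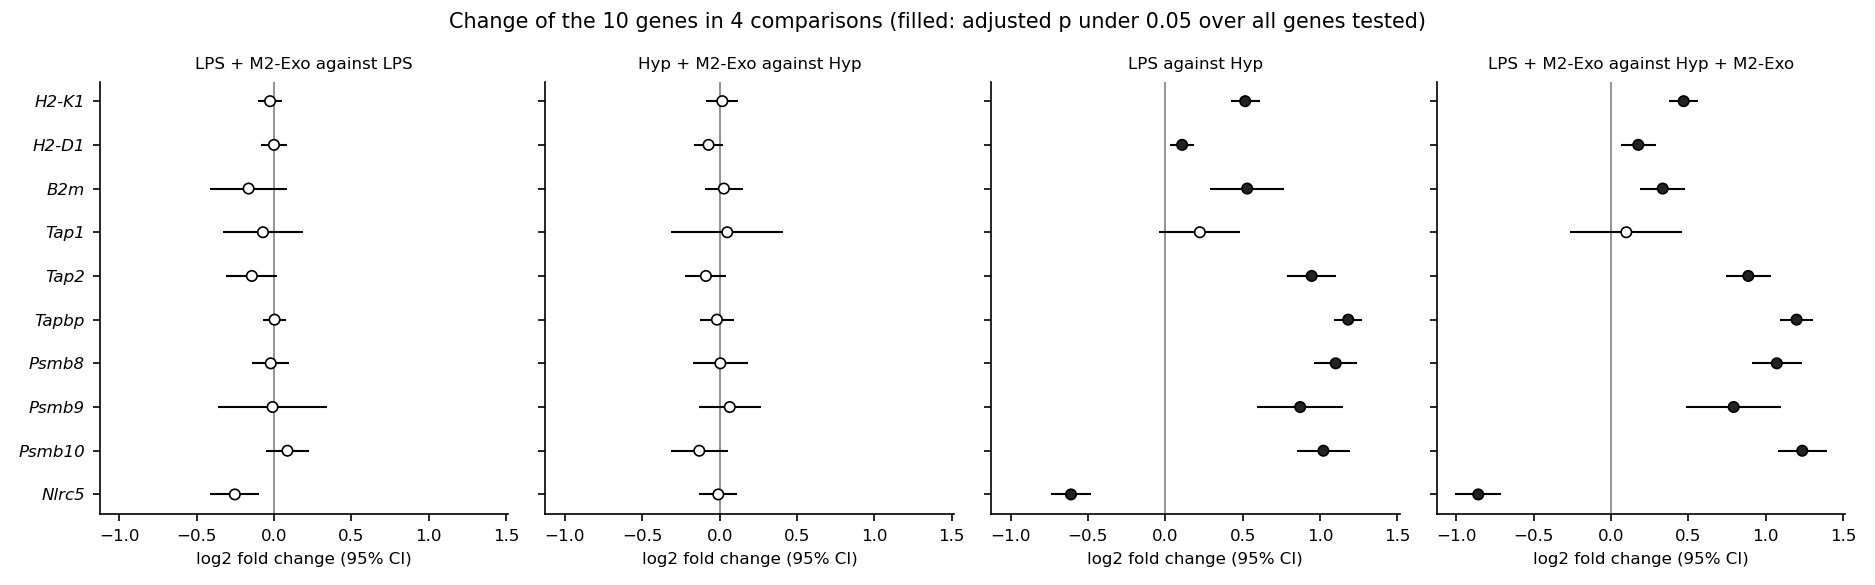
Log2 fold change of each gene with its 95% confidence interval in the 4 comparisons, with filled points where the adjusted p was under 0.05. In the panels of M2-Exo no point is filled and all lie between -0.25 and 0.087, while in LPS against Hyp they run from -0.61 for Nlrc5 to 1.18 for Tapbp.

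Other genes of the pathway were read from lists chosen by function. Over 9 lists, 0 of 112 genes tested passed edgeR's test in LPS + M2-Exo against LPS, with 29 at an unadjusted p under 0.05, which 11.1% of all genes tested reached. In Hyp + M2-Exo against Hyp 0 of 110 passed, with 5 at an unadjusted p under 0.05, a smaller share than the 8.48% of all genes. DESeq2 called 4 in LPS, all lower with M2-Exo, where it called 1.08% of all genes, and 0 in hyperoxia, where it called 0.297%. The 4, named because DESeq2 called them, were the interferon factors Irf7 and Stat2, the tetherin gene Bst2 and Cd74, the invariant chain of MHC class II, with edgeR log2 fold changes of -0.65, -0.35, -0.21 and -0.32. In the interferon-stimulated list all 26 genes had a log2 fold change below 0 in LPS + M2-Exo against LPS, with a median of -0.24, 12 at an unadjusted p under 0.05, against the 11.1% of all genes, and 0 at an adjusted p under 0.05. In hyperoxia 11 of the 26 were below 0, with a median of 0.015. As a difference between the models, 24 of 26 were below 0, with a median of -0.27, 7 at an unadjusted p under 0.05, which 9.78% of all genes reached, and 0 called by edgeR or DESeq2, which called 0.649% of all genes. Summed macrophage markers were 435 to 483 CPM in LPS and 343 to 390.4 CPM in LPS + M2-Exo. Of 11 macrophage marker rows tested, 9 had a log2 fold change below 0 and 2 above. DESeq2 called 4 of the 11, Ptprc, Csf1r, Lyz2 and Adgre1, all lower with M2-Exo, where it called 1.08% of all genes. By edgeR 0 were called. The part of these markers in the pathway values was not tested.

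The lists were then read in LPS against Hyp, where 75.8% of all genes were called, 37.8% higher and 38% lower. Of 18 other class I heavy chains listed, 13 were tested, 12 were higher, 0 were lower, and the median was 0.64. Fcgrt, the neonatal Fc receptor, was at 67.6 ± 1.97 CPM in LPS and 19.2 ± 0.695 CPM in Hyp (log2 fold change 1.82, adjusted p = 6.58e-08). The lipid-presenting Cd1d1 was at 22.1 and 4.74 CPM (2.22), Hfe, which acts in iron sensing, at 14.6 and 6.47 CPM (1.17), and Mr1, which presents vitamin metabolites, at 9.67 and 3.99 CPM (1.27). H2-T23, the mouse Qa-1 gene, had 7.5, 6.8 and 8.1 CPM in LPS and 0.8, 1.1 and 1.5 CPM in Hyp. H2-M3 had a log2 fold change of -0.21 that did not pass (adjusted p = 0.0678). H2-Q1 had 402, 346 and 361 counts in LPS but 23, 264 and 24 counts in LPS + M2-Exo, so its libraries split within that group. It is named because of these values.

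The peptide-loading and trimming genes did not move one way. Of 15 tested, 5 were higher and 4 lower in LPS than in Hyp, a smaller share than the 75.8% of all genes, with a median of 0.0049. The chaperone Calr fell by 0.50 on the log2 scale, the translocon subunit Sec61a1 by 0.49 and the folding sensor Uggt1 by 0.25. The aminopeptidases Lnpep and Npepps rose by 0.46 and 0.47, and Bcap31, a protein of the endoplasmic reticulum membrane, by 0.27. Pdia3, a partner of tapasin, had a log2 fold change of 0.039 (adjusted p = 0.517).

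In the rest of the proteasome, constitutive beta subunits numbered 2 higher and 5 lower of 7, with a median of -0.25. Psmb1 and Psmb4 rose by 0.23 and 0.21, and Psmb2 and Psmb3 fell by 0.39 and 0.20. Alpha subunits numbered 2 higher and 3 lower of 7, near the 75.8% of all genes, with Psma7 and Psma5 up by 0.53 and 0.52 and Psma1 down by 0.56. Among activators and assembly factors, 2 rose and 6 fell of 10, also near that share. The 2 that rose were Psme1 and Psme2, which encode the interferon-inducible PA28 activator. Psme1 was at 136 CPM in LPS and 54.9 CPM in Hyp (log2 fold change 1.31, adjusted p = 2.95e-07), and Psme2 at 48.9 and 29.5 CPM (0.73). Psme3, the nuclear activator, fell by 0.67, the inhibitor Psmf1 by 0.81 and the assembly factor Psmg3 by 1.11.

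Among 18 regulators, 9 were higher and 3 lower in LPS than in Hyp, a smaller share than the 75.8% of all genes, with a median of 0.22. Rfx5, a subunit of the X box factor, was at 49.4 CPM in LPS and 21.7 CPM in Hyp (log2 fold change 1.19, adjusted p = 6.15e-07). The NF-kappa B gene Nfkb1 was at 227 and 129 CPM (0.82), Irf2 at 58.9 and 36.7 CPM (0.68), Irf7 at 14.8 and 4.14 CPM (1.84) and Irf8 at 5.69 and 1.29 CPM (2.14). Rela fell by 0.25 and Ezh2, a Polycomb methyltransferase, by 0.23, while Irf3 had a log2 fold change of 0.13 (adjusted p = 0.160). Of 9 interferon receptor and kinase genes 6 were higher and 0 lower, where 37.8% of all genes were higher and 38% lower. Ifnar1 rose by 0.83, Ifngr2 by 0.91, Jak2 by 0.94, Ifnar2 by 0.69, Il10rb by 0.73 and Tyk2 by 0.57, and Jak1 had a log2 fold change of 0.023 (adjusted p = 0.506).

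Of the interferon-stimulated genes, 24 of 26 were higher and 0 lower, with a median of 1.27. For this count and the others of this paragraph, 37.8% of all genes tested were higher in LPS and 38% lower. Parp14 was at 143 CPM in LPS and 44.2 CPM in Hyp, Gbp7 at 44.4 and 15.1 CPM, Ifit2 at 75.2 and 34.3 CPM, Dhx58 at 37.9 and 8.35 CPM and Ly6e at 60.9 and 18.9 CPM. Bst2, Trim25 and Eif2ak2, which had the highest FPKM of the list, rose by 0.77, 0.85 and 0.77, and Gbp2 by 1.74. MHC class II was sparse. Its 10 genes gave 5 that could be tested, all 5 higher in LPS, led by Cd74 at 64.9 and 10.1 CPM (2.68) and Ctss, a lysosomal protease, at 34.3 and 12.3 CPM (1.48), while H2-Ab1 was at 0.78 and 0.19 CPM. The class II regulator Ciita, at 0.11 and 0.48 CPM, was too low to test there. H2-DMb1 rose by 1.48 and H2-DMa by 0.47. The summed macrophage markers, 435 to 483 CPM in LPS and 117 to 122 CPM in Hyp, differed in the same comparison, with 9 of 13 tested rows higher and 3 lower. Of the type II markers 8 could be tested, 6 were higher, among them Nkx2-1 at 172 and 39.4 CPM, and 2 were lower, Sftpb and Etv5, with log2 fold changes of -1.62 and -0.50. Of 5 tested epithelial markers 4 were higher, Cdh1, Cldn3, Epcam and Krt8, and Krt19 was lower, at 499.98 and 739.8 CPM. Their part in the changes of the 10 genes was not tested.

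**Figure D5:**
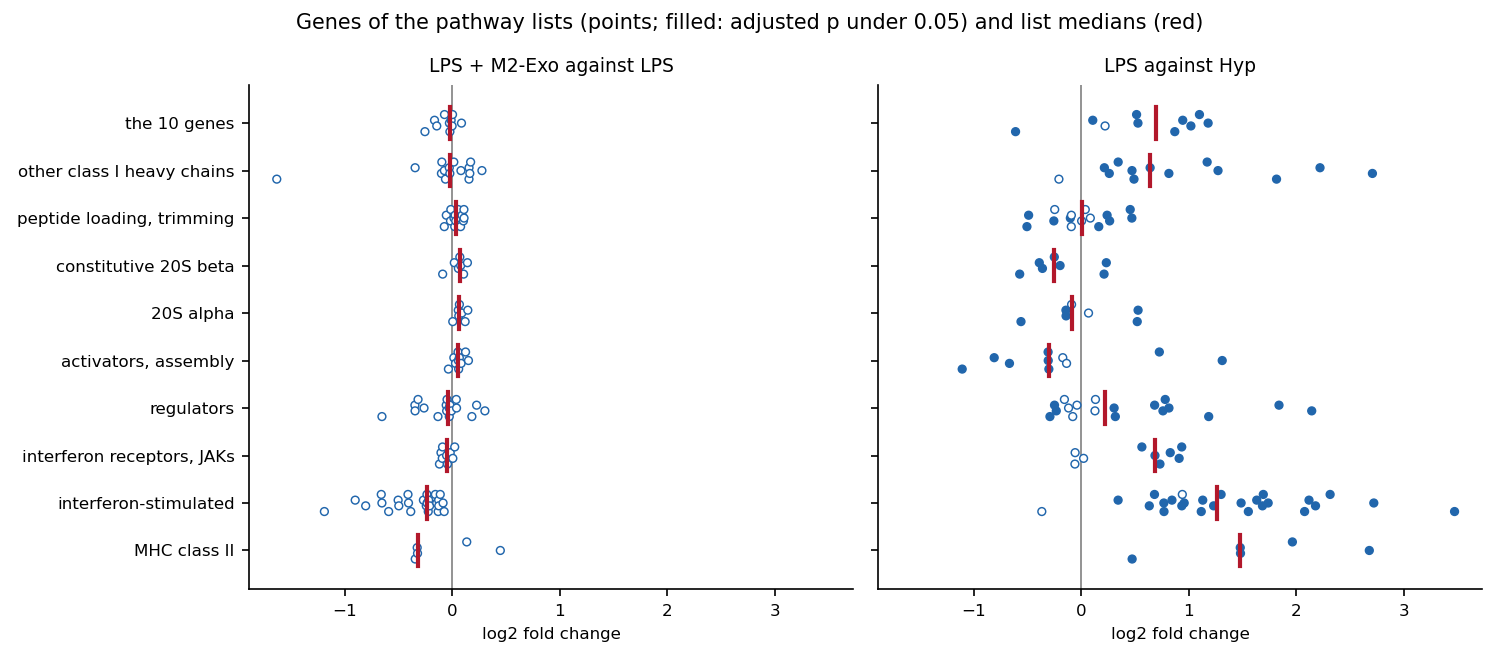
Log2 fold change of each tested gene of the pathway lists (points, filled for an adjusted p under 0.05) with the list median in red, for LPS + M2-Exo against LPS and for LPS against Hyp. No point is filled on the left, where the interferon-stimulated median is -0.24, and on the right that median is 1.27 and the constitutive beta median is -0.25.

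Across the 12 libraries, the mean of the 10 standardised log2 levels was between 0.51 and 0.96 in the 6 LPS libraries and between -0.97 and -0.41 in the 6 hyperoxia libraries. Pearson's r of each gene with this mean, in which it takes part, was 0.99 for Psmb8 and Tap2, 0.98 for Tapbp and H2-K1, 0.96 for Psmb10, 0.92 for Psmb9, 0.91 for H2-D1, 0.86 for B2m, 0.59 for Tap1 and -0.92 for Nlrc5. The other genes whose log2 CPM were most like the mean were Fmnl1, B3galnt1, Lyz2, Speg, Gm8995, Lgals9, Stap2 and Ptpn6, with r of 0.993 to 0.995 over 12 libraries. These values mostly restate the split between the injuries, since 3134 of 11608 candidate genes had an r above 0.9. Fmnl1 was at 23.9 CPM in LPS and 4.96 CPM in Hyp, Lyz2, a macrophage marker, at 103 and 25.9 CPM, Lgals9 at 226 and 111 CPM and Ptpn6 at 39.2 and 6.58 CPM.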

How the data were processed

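Poly(A) RNA of 12 libraries, 3 for each of 4 groups, was sequenced on an Illumina NovaSeq after TruSeq library preparation. Per the labels and the study's methods, the authors trimmed reads with Seqtk and aligned them to GRCm38 with HISAT2 2.0.4. The submitters' processing notes also name StringTie 1.3.0 and edgeR. The authors deposited raw read counts per gene in 1 table for the whole series, and FPKM per gene beside them, which scale those counts for depth and gene length. The annotation, the counting program and its use of strand are not given in the sources used here. The table held 0 sample columns that were left unused. The FPKM served for 1 order of levels and for choosing abundant list genes.

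Genes were kept by filterByExpr, and edgeR 4.0.16 (R 4.3.3) was run with TMM normalization and the quasi-likelihood test on the counts, separately for the 6 libraries of each of 4 comparisons and on all 12 for the interaction. P-values were adjusted by Benjamini-Hochberg over all genes tested, at 0.05. Simulated counts in which 200 genes were changed were used to check the fit. CPM are TMM-normalised, and CPM per kb use the exons of each gene in GENCODE M21. DESeq2 1.42.0, RLE normalization, other filters, 1 fit over all 12 libraries, the replicate number as a block, leaving out each library and summed class I heavy chains were the alternatives. Total counts were 16021833 to 24074616 per library, and biological coefficients of variation were 8.78% to 9.41%.

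All 10 genes were named, with, for each other list, up to 6 genes called in any test and the 3 with the highest FPKM, and the 8 genes outside the 10, with a mean of at least 50 counts, most like their mean pattern. The genes and lists were chosen with earlier results of these data known. Promoters were taken from RefSeq.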

Additional observations from a re-analysis of the deposited data

How the results depend on the processing

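Every call in LPS against Hyp and in LPS + M2-Exo against Hyp + M2-Exo kept its direction under all the alternatives run. H2-D1 lost its call in LPS against Hyp without Hyp replicate 1 (log2 fold change 0.0877, adjusted p = 0.0640 from edgeR), and Tap1 ranged from -0.0373 to 0.3169 in LPS + M2-Exo against Hyp + M2-Exo as single libraries were left out. With summed class I heavy chains in place of H2-K1 and H2-D1, 8 features were called in each of these 2 comparisons. No gene of the 10 was called for M2-Exo under any alternative. Nlrc5 in LPS + M2-Exo against LPS stayed between -0.31 and -0.22, with adjusted p from 0.164 to 0.590. For genes near 0 the sign was not fixed. H2-D1 in LPS + M2-Exo against LPS, at 0.0001, was -0.0001 with RLE normalization, -0.0019 without a filter, -0.0033 with at least 10 counts in every library and -0.0002 with DESeq2. With single libraries left out, log2 fold changes in LPS + M2-Exo against LPS ranged from -0.0187 to 0.0318 for H2-D1, -0.2775 to -0.0445 for B2m, -0.1476 to 0.0726 for Tap1, -0.0205 to 0.0265 for Tapbp, -0.0553 to 0.0153 for Psmb8 and -0.1256 to 0.116 for Psmb9. In Hyp + M2-Exo against Hyp they ranged from -0.0187 to 0.0446 for H2-K1, -0.0239 to 0.0682 for B2m, -0.1711 to 0.1772 for Tap1, -0.0604 to 0.0047 for Tapbp, -0.052 to 0.0628 for Psmb8, -0.0018 to 0.114 for Psmb9 and -0.0445 to 0.0353 for Nlrc5. The cause of these shifts was not tested beyond the libraries left out. No pairing by replicate number was seen, since deviations of same-numbered libraries correlated at -0.018 to 0.050. With 3 libraries per group, weak correlations cannot exclude it. With the number as a replicate block, 0, 0, 9 and 9 of the 10 genes were called in the 4 comparisons, and H2-D1 in LPS + M2-Exo against LPS was at -0.0005. Among listed pathway genes edgeR called 0 and DESeq2 called 4 in LPS + M2-Exo against LPS. Without the filter, low-count genes moved the median of all genes in LPS + M2-Exo against Hyp + M2-Exo to -0.11.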
